A study of Mus musculus with 74 samples.

Results

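The genes of the antioxidant defence described here were followed through mouse spinal cord microglia and sciatic nerve macrophages in a model of amyotrophic lateral sclerosis (ALS). The 10 genes are Nfe2l2, which encodes the transcription factor Nrf2, and 9 enzymes: Sod2, Cat, Gpx1, Prdx1, Txnrd1, Srxn1, Gclc, Gclm and Nqo1. They were chosen by symbol, as 10 of the 23297 features that carry a symbol in each of the deposited tables, and all 10 were found in both. All 10 also passed the filter on low values in every fit. RNA was sequenced from 74 libraries of female mice, each made from cells held on magnetic beads against CD11b, a surface protein of myeloid cells. Each MG library holds the cells of 1 spinal cord. An MP library holds those of both sciatic nerves of a mouse, or, before symptoms, of 2 mice pooled.

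Mutant hSOD1-G93A mice on C57BL/6J carry a human SOD1 transgene with a mutation that causes ALS. Their MG come from 4 stages: pre-symptomatic mice with a mean age of 50.8 days (n = 4), onset at the peak of body weight and 105 days (n = 5), an early symptomatic stage with 10% of weight lost at 152.6 days (n = 4), and the end stage at 169.4 days (n = 4). MG of mice with a wildtype hSOD1 transgene (WT below) were taken at the ages of onset (n = 4, 107.3 days) and end stage (n = 4, 165.4 days). Those of non-transgenic C57BL/6J mice came from nearby ages (n = 4 each, 109.8 and 165.6 days). MP of G93A mice were taken at the same stages as MG (n = 3, 3, 4 and 4). Another 4 MP libraries, of end-stage age, are WT by their description and G93A by both their title and their strain label. They are called "described as WT". In the grafted series the hosts were G93A mice, given marrow of G93A or WT donors when disease set in, and sampled at the early symptomatic or the end stage. Grafted groups have n = 3, and the early MP group with WT marrow has n = 2. The hosts' own spinal cord cells carry the mutant transgene whatever the donor, and the sources used here do not say how hosts were prepared. The human transgene was not analysed here, so the genotype labels were not checked against it.

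Nrf2 is held at a low level by Keap1, an adaptor that passes it to the Cul3 ubiquitin ligase. Oxidants and electrophiles modify Keap1, and Nrf2 then enters the nucleus, pairs with a small Maf protein and binds antioxidant response elements in the promoters of detoxifying genes. Its protein level is set largely after translation, so the Nfe2l2 transcript is not a measure of Nrf2 activity. In myeloid cells Sod2, Cat, Gpx1 and Prdx1 act on the superoxide or hydrogen peroxide that the cells' own NADPH oxidase and mitochondria produce. The roles of Txnrd1, Srxn1, Gclc, Gclm and Nqo1 are less direct and are given with their levels below. Sod2, Cat and Gpx1 are also controlled by factors other than Nrf2.

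The core of the antioxidant response element was looked for in the members' promoters. The letters searched were TGACNNNGC, on both strands, in windows of 300 bases (250 before to 50 after the RefSeq start, build GRCm38.p6). Of 32851 such windows, 12.4% held the motif. Promoters were found for 9 members, and Gclc had none. Prdx1, Gclm, Srxn1, Txnrd1 and Nfe2l2 held the motif, 5 of 9 genes. Counted by window, as the 12.4% is, it was 5 of 11. The members were picked as antioxidant and Nrf2 genes, so this share is not a result of these data. Of the 3 Txnrd1 windows, 1 held it. Cat, Nqo1, Gpx1 and Sod2 had no match in this window. A match is a description of letters and not a measured binding site. The stretches around 4 of the matches are printed below on the strand of the gene, with the match in capitals. The Srxn1 match starts at base 29 of the transcript and is not printed. Matches in Prdx1, Gclm and Txnrd1 read on the opposite strand, so their letters are the reverse complement of the motif.
Prdx1, chr4:116685426-116685514, + strand: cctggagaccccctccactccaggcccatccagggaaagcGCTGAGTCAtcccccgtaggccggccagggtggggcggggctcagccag
Txnrd1, chr10:82859074-82859162, + strand: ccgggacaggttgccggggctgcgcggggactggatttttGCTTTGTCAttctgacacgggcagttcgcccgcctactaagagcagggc
Gclm, chr3:122245383-122245471, + strand: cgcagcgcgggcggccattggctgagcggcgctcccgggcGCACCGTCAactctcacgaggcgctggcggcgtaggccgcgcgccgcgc
Nfe2l2, chr2:75704855-75704913, - strand: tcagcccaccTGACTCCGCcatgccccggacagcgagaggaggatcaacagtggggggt

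Levels are in FPKM, which scales fragments by transcript length and by library size. Read depth is unknown. MG libraries expressed Tmem119 (70.8 to 1865 FPKM), a microglial marker, and MP libraries held Itgam, the CD11b gene, at 97.4 to 378 FPKM with Tmem119 at a median of 5.86 FPKM. Transcripts of other cells were present in both. In non-grafted MP libraries the 9 neutrophil markers summed to between 75467 and 213085 FPKM, and the 8 macrophage markers to between 2734 and 8444 FPKM. Levels in MP are therefore those of a mixture and not of macrophages alone. In non-grafted MG libraries the 10 oligodendrocyte markers summed to between 824 and 32472 FPKM, and the spread was wide within groups. Among the 5 onset libraries of G93A mice this sum was 31950, 2115, 824, 25553 and 2922 FPKM. S100a8, a neutrophil gene, was above 10000 FPKM in 4 MG libraries: onset G93A replicate 5, end-stage G93A replicate 4, and WT replicates 1 and 2 at the age of end stage. In such mixed tissue samples, fewer cells of a type and less RNA per cell cannot be told apart.

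The course of the disease in MG was read from G93A libraries, each stage against pre-symptomatic mice. In early symptoms 4 of 10 genes passed, where 35.2% of all genes did: Nfe2l2, Gpx1, Prdx1 and Txnrd1, each as higher. At end stage 6 of 10 passed, where 55.9% of all genes did: these 4 as higher, while Sod2, the superoxide dismutase of mitochondria, and Cat, the catalase of peroxisomes, were lower. Gclc, Gclm, Srxn1 and Nqo1 passed the test at no stage. Some means also differed between WT mice of 107.3 and 165.4 days. Gpx1 was at 110 and 310 FPKM, Nfe2l2 at 29.8 and 54.1, Sod2 at 17.2 and 11.2 and Cat at 66.9 and 52.1 FPKM. Prdx1 (432 and 452 FPKM) and Txnrd1 (16.6 and 15.8 FPKM) lay closer together. These age differences in WT mice were not tested. A gene passed at a limma adjusted p under 0.05 over all genes tested (Benjamini-Hochberg), and log2 differences are on the log2(FPKM + 1) scale with their SE.

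**Figure D1:**
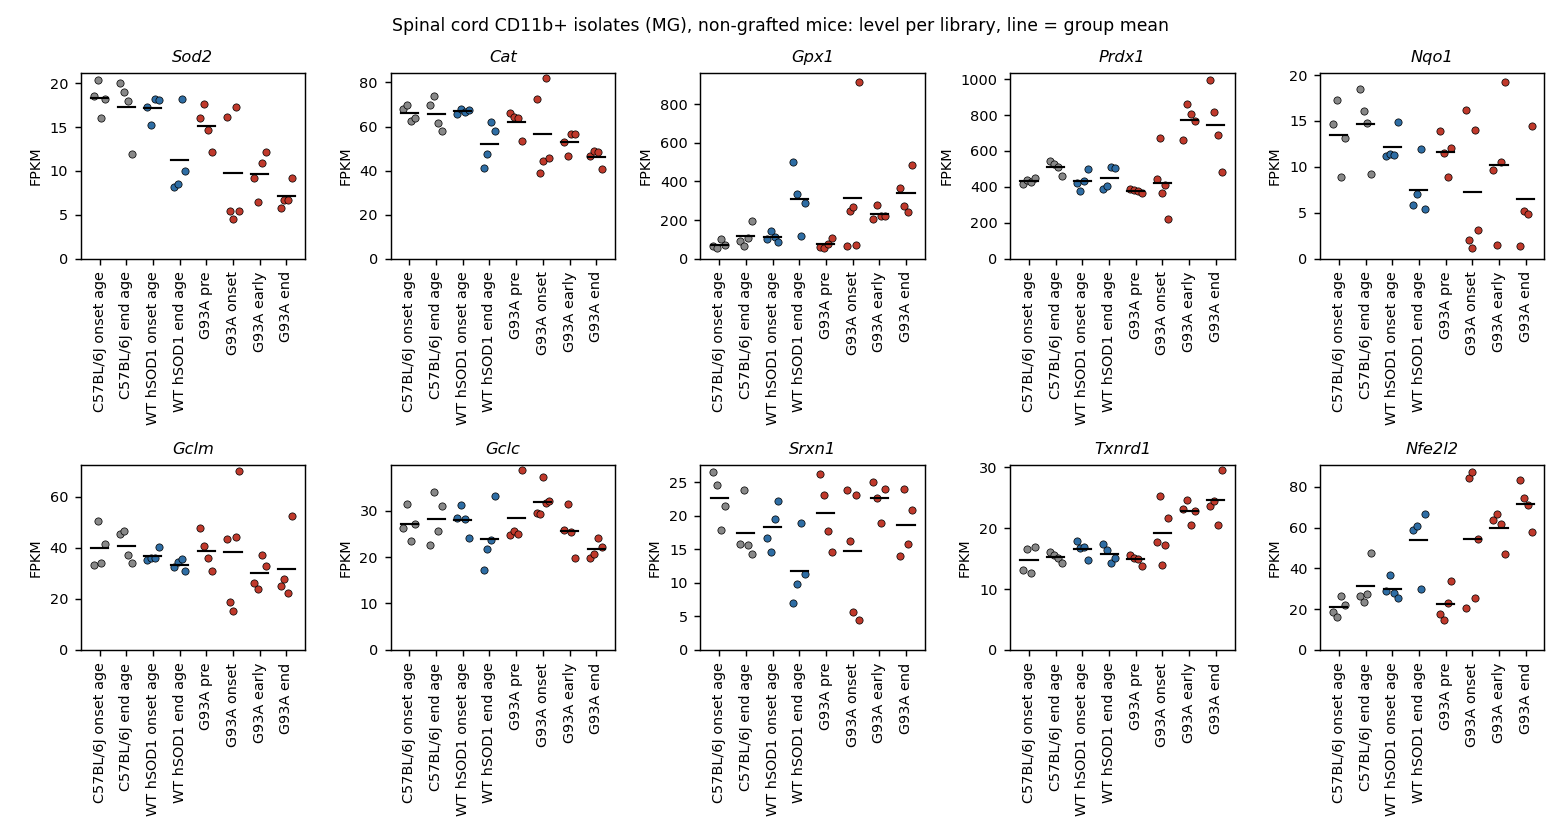
Level (FPKM, linear axis from 0) of the 10 genes in each of the 33 non-grafted spinal cord libraries (MG), by genotype and stage or matched age. A point is a library and a line the group mean: Nfe2l2 and Txnrd1 sit higher in all early and end-stage G93A libraries than in all pre-symptomatic ones, while the 5 onset libraries lie far apart for Sod2, Nqo1, Gclm and Nfe2l2.

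Nfe2l2 (chromosome 2, 75675513 to 75704666 on mm10, minus strand) was at 17.7, 14.8, 22.8 and 33.98 FPKM in pre-symptomatic MG. It was at 63.6, 66.5, 61.5 and 47.0 FPKM in early symptoms, and at 83.4, 74.4, 71.0 and 58.1 FPKM at end stage. Neither later group overlapped the pre-symptomatic one. The log2 difference was 1.43 ± 0.35 in early symptoms (adjusted p = 0.00443) and 1.70 ± 0.35 at end stage (adjusted p = 0.000541). At onset the 5 libraries were at 20.4, 84.6, 87.3, 25.7 and 54.4 FPKM. Replicates 1 and 4 lay within the pre-symptomatic range and the other 3 above it. The onset difference of 1.09 ± 0.33 passed the test (adjusted p = 0.0391).

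Gpx1 (chromosome 9, 108339080 to 108340340, plus strand) encodes the cytosolic glutathione peroxidase that reduces hydrogen peroxide. It was at 61.5, 54.6, 77.3 and 105 FPKM before symptoms. In early symptoms it was at 206, 277, 222 and 223 FPKM, and at end stage at 366, 275, 241 and 485 FPKM. All 8 later values were above all 4 pre-symptomatic ones. The difference was 1.66 ± 0.53 in early symptoms (adjusted p = 0.0204) and 2.17 ± 0.53 at end stage (adjusted p = 0.00189). Onset libraries were at 65.8, 246, 270, 72.3 and 919 FPKM (difference 1.43 ± 0.50, adjusted p = 0.043). The onset library with 919 FPKM, replicate 5, is one of the 4 with S100a8 above 10000 FPKM, as is the end-stage library with 485 FPKM.

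Prdx1 (chromosome 4, 116685597 to 116700820, plus strand) encodes peroxiredoxin 1, a thiol peroxidase. Its pre-symptomatic values lay close together, at 391, 381, 379 and 365 FPKM. They were 660, 864, 806 and 768 FPKM in early symptoms and 995, 820, 687 and 480 FPKM at end stage, with no overlap with the pre-symptomatic group. Differences were 1.02 ± 0.22 (adjusted p = 0.00209) and 0.93 ± 0.22 (adjusted p = 0.00177). At onset Prdx1 ranged from 219 to 673 FPKM, on both sides of the pre-symptomatic values, and the difference was 0.07 ± 0.21 (adjusted p = 0.798).

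Txnrd1 (chromosome 10, 82833951 to 82897724, plus strand) encodes the cytosolic thioredoxin reductase, which passes electrons from NADPH to thioredoxin and so to the peroxiredoxins. It was at 15.6, 15.1, 14.99 and 13.8 FPKM before symptoms. In early symptoms it was at 23.2, 24.6, 20.5 and 22.8 FPKM, and at end stage at 23.7, 24.5, 20.5 and 29.6 FPKM. Both later groups lay above all pre-symptomatic values, and they overlapped each other. The difference was 0.58 ± 0.14 in early symptoms (adjusted p = 0.00348) and 0.68 ± 0.14 at end stage (adjusted p = 0.000473). At onset its values ran from 14 to 25.3 FPKM, and the difference of 0.32 ± 0.13 missed the threshold (adjusted p = 0.0592).

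Sod2 (chromosome 17, 13007839 to 13040061, plus strand) was at 16.1, 17.7, 14.7 and 12.2 FPKM before symptoms and at 5.77, 6.68, 6.71 and 9.25 FPKM at end stage. Every end-stage value was below every pre-symptomatic one, and the difference was -1.0 ± 0.30 (adjusted p = 0.0073). In early symptoms it was at 9.25, 6.46, 10.9 and 12.1 FPKM, below the pre-symptomatic range, without passing the test (-0.62 ± 0.30, adjusted p = 0.1). At onset it was at 16.2, 5.44, 4.49, 17.3 and 5.48 FPKM, in 2 separate levels (-0.77 ± 0.28, adjusted p = 0.0472). Cat (chromosome 2, 103453904 to 103485153, minus strand) was at 66.3, 64.1, 64.1 and 53.3 FPKM before symptoms and 46.8, 48.7, 48.4 and 40.8 FPKM at end stage (-0.41 ± 0.17, adjusted p = 0.0393). The Cat call was lost when any 1 of 7 of the 8 libraries was left out (all but pre-symptomatic replicate 4, with differences from -0.48 to -0.36 and an adjusted p up to 0.0972).

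Glutathione synthesis starts with the ligase whose catalytic subunit is Gclc and whose modifier subunit is Gclm. Gclc (chromosome 9, 77754533 to 77794489, plus strand) was at 24.7, 25.6, 24.9 and 38.9 FPKM before symptoms and 19.7, 20.6, 24.2 and 22.2 FPKM at end stage (-0.36 ± 0.17, adjusted p = 0.0757). Gclm (chromosome 3, 122245557 to 122267215, plus strand) was at 38.95 ± 7.1 FPKM before symptoms and 31.9 ± 14.03 FPKM at end stage (SD, n = 4 each; adjusted p = 0.33). Its exons overlap a pseudogene and an antisense transcript in GENCODE, and the sources do not state whether counting used strand, so its level is uncertain. Srxn1 (chromosome 2, 152105524 to 152111375, plus strand), the sulfiredoxin that repairs over-oxidised peroxiredoxins, was at 20.4 ± 5.2 and 18.7 ± 4.6 FPKM (adjusted p = 0.789). Nqo1 (chromosome 8, 107388225 to 107403273, minus strand), a quinone reductase used as a standard readout of Nrf2, was at 11.6 ± 2.1 and 6.47 ± 5.58 FPKM (-1.05 ± 0.57, adjusted p = 0.119). Nqo1 values at end stage were 1.38, 5.21, 4.87 and 14.4 FPKM, wider apart than the difference between the groups.

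Set against all genes, the 3 of 10 members called at onset stand beside 25.4% of the 11750 genes tested, and the shares in the later stages are likewise close to the background given above. The median difference over the 10 genes was -0.06, 0.02 and -0.23, beside 0.14, 0.05 and 0.03 over all genes. The 3 onset calls rested on single libraries: each was lost without pre-symptomatic replicate 1, 2 or 3 or onset replicate 2, 3 or 5 (adjusted p up to 0.148 for Gpx1, 0.146 for Nfe2l2 and 0.166 for Sod2). In early symptoms the Gpx1 call was lost without pre-symptomatic replicate 1 or 2 or early replicate 2 (adjusted p up to 0.0676, differences from 1.53 to 1.84), and the other 3 calls were kept without any 1 library.

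**Figure D2:**
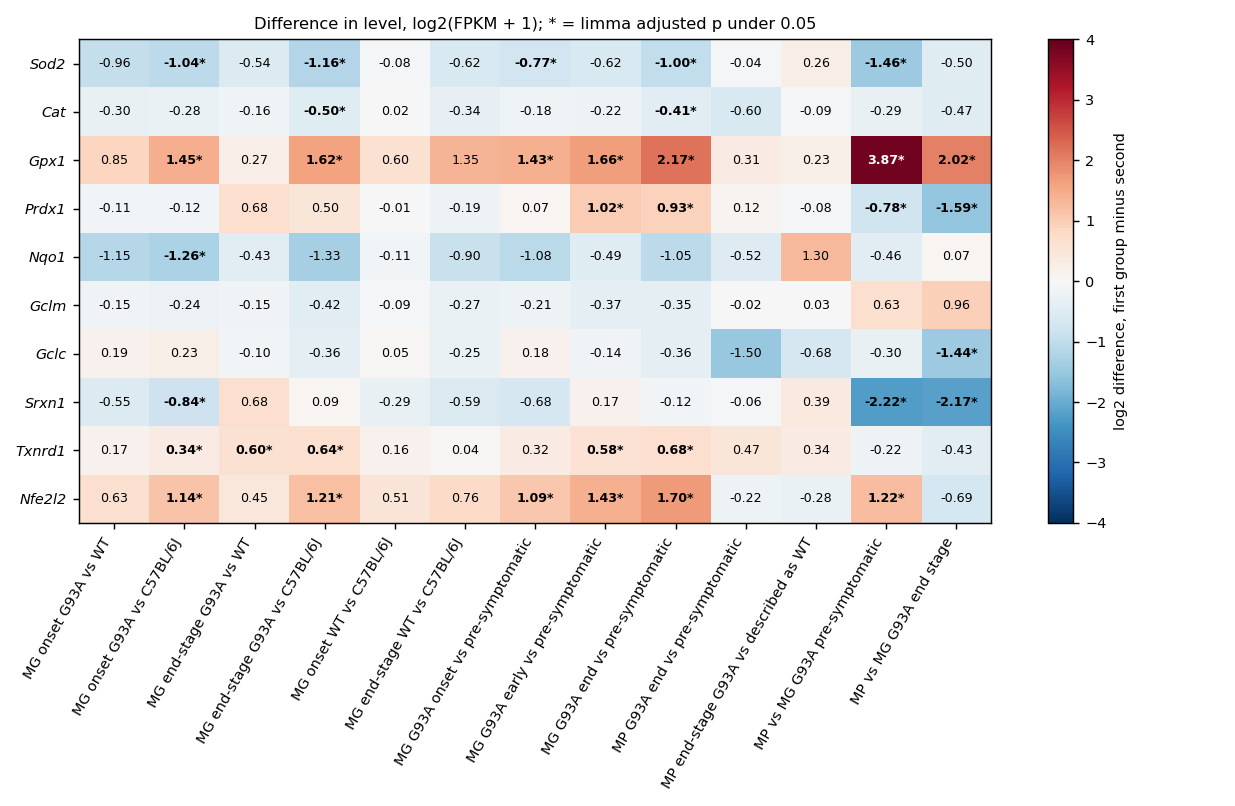
Difference on the log2(FPKM + 1) scale (first group minus second, colour and number) for the 10 genes in 13 comparisons, with an asterisk where the limma adjusted p was under 0.05. Gpx1 and Nfe2l2 pass as higher in 5 of the 9 MG columns each and Txnrd1 in 5, Sod2 passes as lower in 4, and Prdx1 is higher in MG at the later stages and lower in MP than in MG.

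Several of these levels moved with the share of neural transcripts in a library. Oligodendrocyte markers passed as lower at end stage in 9 of 10 genes and astrocyte markers in 8 of 9 (median differences -2.0 and -3.91), while macrophage markers passed as higher in 6 of 7 and neutrophil markers in 6 of 9 (2.02 and 4.08). The summed oligodendrocyte markers were at 27891 to 32472 FPKM before symptoms, 1828 to 13433 FPKM in early symptoms and 1842 to 11288 FPKM at end stage. In 15 of the 33 libraries this sum was under 15000 FPKM, a limit chosen after the values were seen at a gap between 14284 and 19888 FPKM. Sod2 was at 4.49 to 12.1 FPKM in those 15 and at 12.2 to 20.4 FPKM in the other 18. Gpx1 was at 197 to 919 FPKM in the 15 and 54.6 to 145 FPKM in the 18, and Nfe2l2 at 47.0 to 87.3 and 14.8 to 37.0 FPKM. None of these 3 pairs of ranges overlapped. Those of all other members did: Txnrd1 (14 to 29.6 and 12.6 to 17.9 FPKM), Prdx1 (219 to 995 and 365 to 545 FPKM), Cat (38.9 to 58.2 and 53.3 to 82.05 FPKM), Nqo1 (1.18 to 19.3 and 8.88 to 18.4 FPKM), Gclm, Gclc and Srxn1. The share of all genes that separate at this limit was not computed, so the 3 are not read as particular to the 10 genes. Of the 15, 8 are the early and end-stage G93A libraries, so stage and neural transcripts cannot be told apart from these ranges alone.

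The same pattern ran within groups of 1 genotype and age. Onset G93A replicates 1 and 4, with the most oligodendrocyte transcripts of that group, had Sod2 at 16.2 and 17.3 FPKM and Gpx1 at 65.8 and 72.3 FPKM. The other 3 onset libraries had Sod2 at 4.49 to 5.48 FPKM. In WT mice at the age of end stage, replicate 3 had an oligodendrocyte sum of 23467 FPKM against 6709 to 9707 FPKM in the other 3, and it had the highest Sod2 (18.2 FPKM), the lowest Gpx1 (116.1 FPKM) and the lowest Nfe2l2 (30.0 FPKM) of the group.

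Oligodendrocyte scores were 7.088 to 7.483 before symptoms, 4.48 to 6.75 in early symptoms and 4.383 to 6.415 at end stage. Neither later group overlapped the first, so terms for these scores extend a slope shared by all groups across a gap. They cannot separate stage from neural transcripts. With terms for the oligodendrocyte and neutrophil marker scores in the model, 3 of the 6 end-stage calls remained. Prdx1 was at 1.17 (adjusted p = 6.24e-05), Txnrd1 at 0.59 (adjusted p = 0.00968) and Nfe2l2 at 0.74 (adjusted p = 0.0397). The differences of Gpx1 (0.45, adjusted p = 0.239), Sod2 (-0.04, adjusted p = 0.881) and Cat (0.07, adjusted p = 0.703) did not pass. Srxn1, at -0.12 without the terms, was at 0.94 with them and passed (adjusted p = 0.0106). In early symptoms all 4 calls remained with the terms: Prdx1 at 1.10 (adjusted p = 1.91e-05), Nfe2l2 at 0.84 (adjusted p = 0.00953), Gpx1 at 0.70 (adjusted p = 0.0351) and Txnrd1 at 0.54 (adjusted p = 0.00698). Srxn1 (0.79, adjusted p = 0.0135) and Nqo1 (0.58, adjusted p = 0.044) also passed there. None of the 3 onset calls did.

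**Figure D3:**
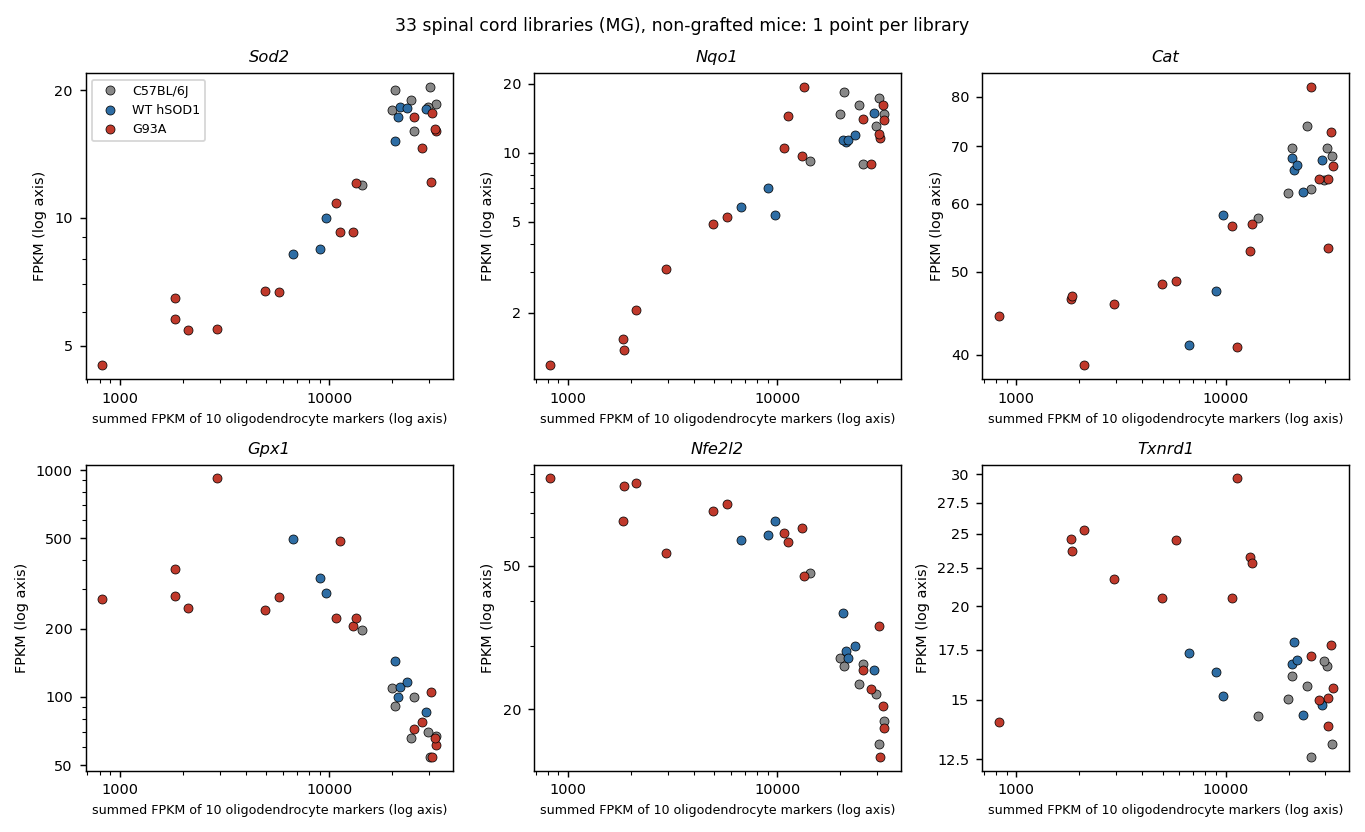
Level of 6 of the genes (FPKM, log axis) against the summed FPKM of 10 oligodendrocyte markers (log axis), with 1 point for each of the 33 non-grafted spinal cord libraries. Sod2, Nqo1 and Cat rise with the marker sum and Gpx1 and Nfe2l2 fall with it across libraries of all 3 genotypes. Txnrd1 is higher in all early and end-stage G93A libraries than in all WT libraries. Onset G93A replicate 3, with the lowest marker sum (824 FPKM), has Txnrd1 at 14 FPKM.

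Age-matched WT mice carry a human SOD1 transgene without the mutation. The level of the transgene was not checked, and cell markers also differed in this comparison, so it does not isolate the mutation. At end stage Txnrd1 alone of the 10 genes passed, where 7.0% of all genes did. It was at 23.7, 24.5, 20.5 and 29.6 FPKM in G93A and at 17.3, 16.4, 14.3 and 15.2 FPKM in WT mice. The groups did not overlap, and the difference was 0.60 ± 0.14 (adjusted p = 0.00768). This call was kept without any 1 library (adjusted p up to 0.0367) and with the marker terms (0.64, adjusted p = 0.00217). With a fit of the 2 groups alone, it was just missed (adjusted p = 0.0603).

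Prdx1 was at 995, 820, 687 and 480 FPKM in G93A and at 390, 403, 509 and 505 FPKM in WT mice at that age, and only replicate 4 of the mutants lay within the WT range. Its difference of 0.68 ± 0.22 missed the threshold (adjusted p = 0.0609). Srxn1 was at 13.95, 23.95, 15.9 and 20.9 FPKM against 6.93, 9.80, 18.9 and 11.3 FPKM (0.68 ± 0.35, adjusted p = 0.24), and passed with the marker terms (0.82, adjusted p = 0.012). Gpx1 was at 342 ± 109 FPKM in G93A and 310 ± 157 FPKM in WT mice (SD, n = 4 each; adjusted p = 0.798), and Nfe2l2 at 71.7 ± 10.49 and 54.1 ± 16.4 FPKM (adjusted p = 0.441). The 10 genes had a median difference of 0.08, beside -0.13 over all genes. Oligodendrocyte markers were at a median of -0.82 in this comparison and none of 10 passed, astrocyte markers at -2.36 with 3 of 9 lower, and neutrophil markers at -1.88 with none of 9 passing.

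At onset 0 of 10 genes passed between G93A and WT MG with limma, where 4.31% of all genes did. An unadjusted p under 0.05 was found for 2 of the 10, beside 34.7% of all genes. Sod2 came closest (-0.96 ± 0.28, adjusted p = 0.0501), at the 5 G93A values above against 17.3, 15.2, 18.2 and 18.1 FPKM in WT mice. Leaving out 1 library gave between 0 and 5 calls, and between 2 and 4978 over all genes, so this count is not stable. Nqo1 had a difference of -1.15 ± 0.54 (adjusted p = 0.131).

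Against non-transgenic C57BL/6J mice at end stage, 5 of 10 members passed, where 46.2% of all genes did. Txnrd1 was at 16.1, 15.7, 15.04 and 14.3 FPKM in C57BL/6J mice, below all 4 mutants (0.64 ± 0.14, adjusted p = 0.00104). Nfe2l2 was at 26.4, 23.5, 27.7 and 47.8 FPKM (1.21 ± 0.35, adjusted p = 0.00737) and Gpx1 at 90.8, 66.1, 109 and 197 FPKM (1.62 ± 0.53, adjusted p = 0.016), both lower than in G93A with no overlap. Sod2 was at 20.1, 19.02, 18.0 and 12.0 FPKM, above all mutants (-1.16 ± 0.30, adjusted p = 0.00384), and so was Cat at 69.7, 74.0, 61.8 and 57.8 FPKM (-0.50 ± 0.17, adjusted p = 0.0191). Leaving out C57BL/6J replicate 2 ended the Gpx1 call (adjusted p = 0.061) and the Cat call (adjusted p = 0.064). With the marker terms the Txnrd1 (0.60, adjusted p = 0.00254) and Sod2 (-0.47, adjusted p = 0.0074) calls remained, and Prdx1 (0.56, adjusted p = 0.011) and Srxn1 (0.79, adjusted p = 0.0114) passed as higher. Oligodendrocyte scores did not overlap here either (6.431 to 7.178 in C57BL/6J, 4.383 to 6.415 in G93A), so the same limit holds.

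At onset 6 of 10 members passed against C57BL/6J, where 55.1% of all genes did: Gpx1 (1.45 ± 0.50), Nfe2l2 (1.14 ± 0.33) and Txnrd1 (0.34 ± 0.13) as higher and Nqo1 (-1.26 ± 0.54), Sod2 (-1.04 ± 0.28) and Srxn1 (-0.84 ± 0.34) as lower, with adjusted p from 0.0107 to 0.0498. For all 6 the groups overlapped: onset replicates 1 and 4 lay within the control range for 5 of them, and replicate 3 did for Txnrd1 (14 FPKM, against 12.6 to 16.9 FPKM in controls). None of the 6 passed with the marker terms, and leaving out 1 library gave between 2 and 7 calls (2245 to 8039 over all genes).

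WT and C57BL/6J mice differed in none of the 10 genes by this test, at either age, where 0.00% of all genes passed with limma. At an unadjusted p under 0.05 there were 0 of 10 at the age of onset, beside 6.19% of all genes. At that of end stage there were 3 of 10, beside 20.6% of all genes. The 3 are Gpx1 (1.35 ± 0.53), Nfe2l2 (0.76 ± 0.35) and Sod2 (-0.62 ± 0.30), each with an adjusted p of 0.238. The WT libraries at this age carried fewer oligodendrocyte transcripts (6709 to 23467 FPKM) than those of C57BL/6J mice (14284 to 24584 FPKM). With library quality weights the adjusted test called 2 and 8 of the 10 genes, in place of 0 and 0. The share of all genes called with these weights is not given here, so this is not read as particular to the 10 genes.

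Among the partners of Nrf2, Maff was at 0.33 ± 0.02 FPKM before symptoms, 3.49 ± 0.69 FPKM in early symptoms and 4.81 ± 1.35 FPKM at end stage (SD, n = 4 each; 1.74 ± 0.25 and 2.10 ± 0.25, adjusted p = 4.25e-05 and 3.59e-06). Maff encodes a small Maf protein. It was also higher than in WT mice at end stage (0.62 ± 0.25 FPKM; 1.83 ± 0.25, adjusted p = 5.04e-05). Keap1 was lower, at 38.7 ± 1.3 FPKM before symptoms, 26.7 ± 3.0 FPKM in early symptoms (adjusted p = 0.0235) and 24.6 ± 3.7 FPKM at end stage (adjusted p = 0.00366). Age and cell mixture also differ between these stages, and their part was not tested. Against WT mice at end stage Keap1 did not pass. There 2 of 9 regulators passed as higher (Maff and Mafk) and 1 as lower (Cul3). Of 9 regulators, 2 passed as higher and 4 as lower at end stage against pre-symptomatic mice, a share near the 55.9% of all genes that passed. Cul3 was at 21.6 ± 11.6 and 7.70 ± 3.17 FPKM (adjusted p = 0.0185), and at 32.8 ± 8.2 FPKM in WT mice (adjusted p = 0.00906).

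Of 22 other Nrf2 targets tested at end stage against pre-symptomatic mice, 9 passed as higher and 4 as lower, a share near the 55.9% of all genes (median 0.65, beside 0.03 over all genes). Hmox1, the inducible heme oxygenase, was at 3.58 ± 0.57 FPKM before symptoms and 60.8 ± 11.9 FPKM at end stage (3.75 ± 0.46, adjusted p = 4.84e-06). It was at 14.4 ± 7.3 FPKM in WT mice at that age (2.15 ± 0.46, adjusted p = 0.0049). Ftl1, the ferritin light chain that stores iron, was at 578 ± 95 and 4588 ± 1562 FPKM (2.93 ± 0.43, adjusted p = 3.02e-05). The glutathione transferases Gsta4 (107 ± 13 to 18.4 ± 16.5 FPKM, adjusted p = 0.00421) and Gstm1 (1051 ± 214 to 210 ± 182 FPKM, adjusted p = 0.00844) were lower. Astrocyte markers (8 of 9) and oligodendrocyte markers (9 of 10) were lower in the same comparison, and their part in these 2 results was not tested. Between G93A and WT mice at end stage, Hmox1 and Ephx1, the microsomal epoxide hydrolase, were the 2 of 22 that passed, beside 7.0% of all genes, both as higher (Ephx1 47.6 ± 7.6 against 24.6 ± 2.6 FPKM, adjusted p = 0.0238).

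Of 19 other antioxidant enzymes, 5 passed as higher and 9 as lower at end stage against pre-symptomatic mice, beside 55.9% of all genes (median -0.42, beside 0.03 over all genes). Gpx3, the secreted glutathione peroxidase, was at 12.2 ± 7.2 and 63.8 ± 27 FPKM (2.34 ± 0.40, adjusted p = 0.000133). It was at 8.29 ± 1.19 FPKM in WT mice at that age (adjusted p = 0.000156). Sod3, the extracellular superoxide dismutase, was at 5.51 ± 1.09 before symptoms and 0.57 ± 0.25 FPKM at end stage (adjusted p = 0.000395). Prdx4, the peroxiredoxin of the endoplasmic reticulum, was higher in early symptoms (21.3 ± 5.4 to 70.3 ± 13.2 FPKM, adjusted p = 0.00117).

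In sciatic nerve MP none of the 10 genes passed at any stage against pre-symptomatic G93A mice with limma. At most 1 gene of 10260 passed in any of these comparisons, 0.00975% at end stage and 0.00% at onset and in early symptoms. No member had an unadjusted p under 0.05, beside 4.62% to 6.54% of all genes. Gpx1 was at 1352, 938 and 977 FPKM before symptoms and at 1272, 999, 983 and 2539 FPKM at end stage (0.31 ± 0.29, adjusted p = 0.897). Nfe2l2 was at 42.5, 84.9 and 36.5 FPKM and at 43.9, 46.1, 44.7 and 40.6 FPKM (-0.22 ± 0.32, adjusted p = 0.934). Both groups overlapped for both genes.

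Some MP levels were widely spread within a group. Gclc was at 23.5, 36.0 and 13.5 FPKM before symptoms and at 2.90, 3.61, 4.70 and 45.8 FPKM at end stage, where replicate 4 alone lay above the pre-symptomatic values (-1.50 ± 0.79, adjusted p = 0.791). The same library had the highest Gpx1 (2539 FPKM), Gclm (259.7 FPKM) and Gclc of all 18. Its 7 red cell markers summed to the highest value of the non-grafted MP libraries, 246684 FPKM, and their part in these levels was not tested. Srxn1 was listed at 0 in 6 of the 18 libraries and Nqo1 in 3, while none of 24 genes used by all cells was at 0. Low values of these 2 genes in MP are therefore given by library only. Nqo1 was at 6.69, 9.26 and 8.52 FPKM before symptoms and at 0, 4.81 and 2.32 FPKM at onset (adjusted p = 0.98).

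**Figure D4:**
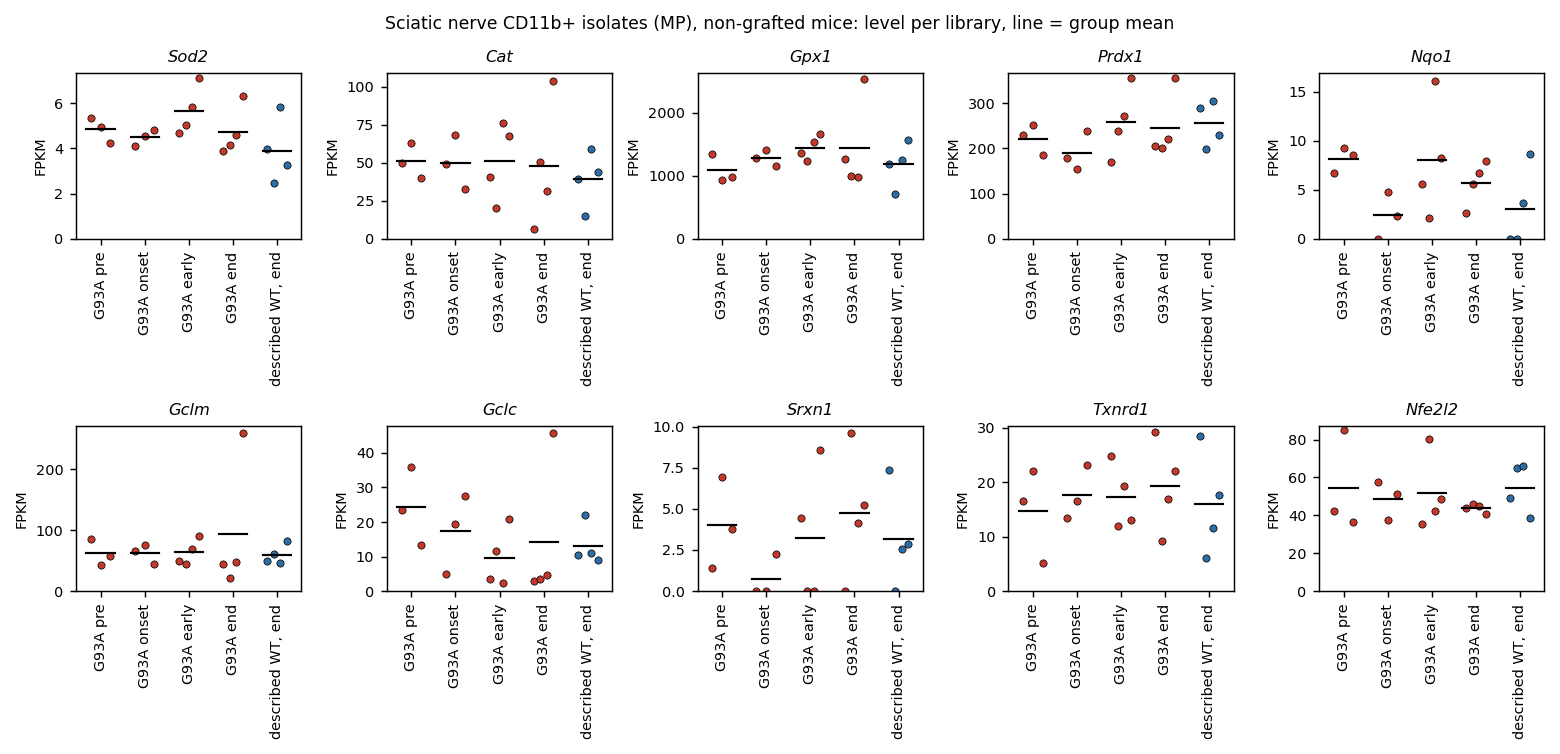
Level (FPKM, linear axis from 0) of the 10 genes in the 18 non-grafted sciatic nerve libraries (MP), by stage, with a point for each library and a line at the group mean. Groups overlap for nearly every gene, and end-stage replicate 4 stands above the other 3 end-stage libraries for Gpx1, Prdx1, Gclm and Gclc.

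Between end-stage G93A MP and the 4 libraries described as WT, 0 of 10 genes passed with limma, as did 0.00% of all genes. No member had an unadjusted p under 0.05, beside 6.45% of all genes. Txnrd1, the gene that passed in MG, was at 29.2, 9.22, 16.98 and 21.99 FPKM against 28.5, 6.13, 11.7 and 17.7 FPKM (0.34 ± 0.48, adjusted p = 0.944). Since the labels of the 4 libraries conflict, no direction is read from this comparison.

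The nerve and spinal cord isolates were compared at the first and the last stage. Before symptoms 5 of 10 genes passed between MP and MG of G93A mice, where 54.7% of all genes did. Gpx1 was at 1352, 938 and 977 FPKM in MP and at 54.6 to 105 FPKM in MG (3.87 ± 0.50, adjusted p = 3.97e-08). Nfe2l2 was at 36.5 to 84.9 FPKM in MP and 14.8 to 33.98 FPKM in MG (1.22 ± 0.36, adjusted p = 0.00365). Srxn1 was at 1.39, 6.92 and 3.75 FPKM in MP and 14.6 to 26.2 FPKM in MG (-2.22 ± 0.65, adjusted p = 0.00381). Sod2 (-1.46 ± 0.31, adjusted p = 0.000121) and Prdx1 (-0.78 ± 0.25, adjusted p = 0.00843) were also lower in MP. Relative to the median over all genes of -0.17, these 5 differences were 4.04, 1.39, -2.06, -1.29 and -0.62. The MP libraries hold neutrophil and red cell transcripts and the MG libraries neural ones, so cell type and cell mixture cannot be told apart here. Leaving out MP replicate 2 ended the Nfe2l2 call (adjusted p = 0.0627), and leaving out MP replicate 3 that of Prdx1 (adjusted p = 0.056). With a pseudocount of 0.1 the Srxn1 call was lost (adjusted p = 0.0849).

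At end stage 4 of 10 genes passed, where 39.4% of all genes did. Gpx1 was higher in MP, at 983 to 2539 FPKM against 241 to 485 FPKM (2.02 ± 0.46, adjusted p = 0.000634). Prdx1 was at 204, 201, 220 and 355 FPKM in MP and at 480 to 995 FPKM in MG (-1.59 ± 0.24, adjusted p = 1.91e-06). Srxn1 was at 0, 9.58, 4.16 and 5.22 FPKM against 13.95 to 23.95 FPKM (-2.17 ± 0.61, adjusted p = 0.00425), and missed the threshold without MP replicate 1 (adjusted p = 0.0539). Gclc was lower in 3 of the 4 MP libraries (-1.44 ± 0.49, adjusted p = 0.0165), and its call was lost without MP replicate 1, 2 or 3 (adjusted p up to 0.0988).

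An interaction term tested whether the rise or fall by end stage differed between nerve and spinal cord, and 2 of 10 members passed where 19.8% of all genes did. Nfe2l2 changed by 1.70 in MG and by -0.22 in MP, and the difference of -1.91 ± 0.49 passed (adjusted p = 0.0082), also without any 1 library. Gpx1 changed by 2.17 in MG and 0.31 in MP (-1.86 ± 0.68, adjusted p = 0.0478). The Gpx1 call was lost without any 1 of 12 of the 15 libraries (adjusted p up to 0.0958). The 3 without which it was kept are MG pre-symptomatic replicate 4, MG end-stage replicate 3 and MP end-stage replicate 4. Prdx1 (-0.81 ± 0.35, adjusted p = 0.0902) and Sod2 (0.96 ± 0.43, adjusted p = 0.104) did not pass. In the same interaction oligodendrocyte markers had a median of 1.71 with 3 of 10 passing, and astrocyte markers 4.15 with 7 of 9 passing.

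The grafted mice asked whether bone marrow from a WT donor changes these genes in a G93A host. With limma 0 of 10 genes passed between donors or stages in any of the 8 comparisons of MG or MP, as did 0.00% of all genes. At an unadjusted p under 0.05 there was 1 member between donors in early MG, beside 11% of all genes. Between donors in end-stage MP there were 2, beside 15.4% of all genes. In the other 6 comparisons there were 0, beside 0.476% to 9.07%. This table was read on its own, and no level in it was compared with non-grafted mice.

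In MG in early symptoms, Nqo1 was at 0.84, 1.14 and 2.15 FPKM with G93A marrow and at 1.30, 5.69 and 13.5 FPKM with WT marrow (1.39 ± 0.54, adjusted p = 0.407). The 13.5 FPKM library, replicate 3, also had the highest Sod2 (12.3 FPKM), Cat (76.8 FPKM) and Srxn1 (33.7 FPKM) and the lowest Gpx1 (135.6 FPKM), Prdx1 (263 FPKM) and Nfe2l2 (20.9 FPKM) of the 12 grafted MG libraries. Its oligodendrocyte markers summed to 28046 FPKM, against 675 to 7214 FPKM in the other 11, and its astrocyte markers to 18501 FPKM. Txnrd1 was at 23.2, 28.5 and 26 FPKM with G93A marrow and 21.1, 29.8 and 25.8 FPKM with WT marrow, a difference of -0.03 ± 0.23 (adjusted p = 0.97). At end stage it was at 21.9, 17.3 and 20.4 FPKM and at 20.8, 22.9 and 26.9 FPKM (0.23 ± 0.23, adjusted p = 1).

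In MP at end stage, Prdx1 was at 82.8, 159 and 122.7 FPKM with G93A marrow and at 226, 175 and 413 FPKM with WT marrow. The groups did not overlap, and the difference of 1.11 ± 0.50 did not pass (adjusted p = 0.322). Txnrd1 was at 18.6, 20.7 and 9.18 FPKM and at 0.13, 11.5 and 5.79 FPKM (-1.83 ± 0.77, adjusted p = 0.286). In the library with 0.13 FPKM, WT marrow replicate 1, Gclc was at 0.01, Srxn1 at 0.07 and Nqo1 at 0 FPKM. Genes used by all cells went down to 0.02 FPKM in grafted MP libraries, and what such low values stand for was not tested. Gclm in early symptoms was at 38.8, 32.2 and 41.4 FPKM with G93A marrow and at 57.5 and 64.9 FPKM with WT marrow, without overlap (0.70 ± 0.33, adjusted p = 1).

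**Figure D5:**
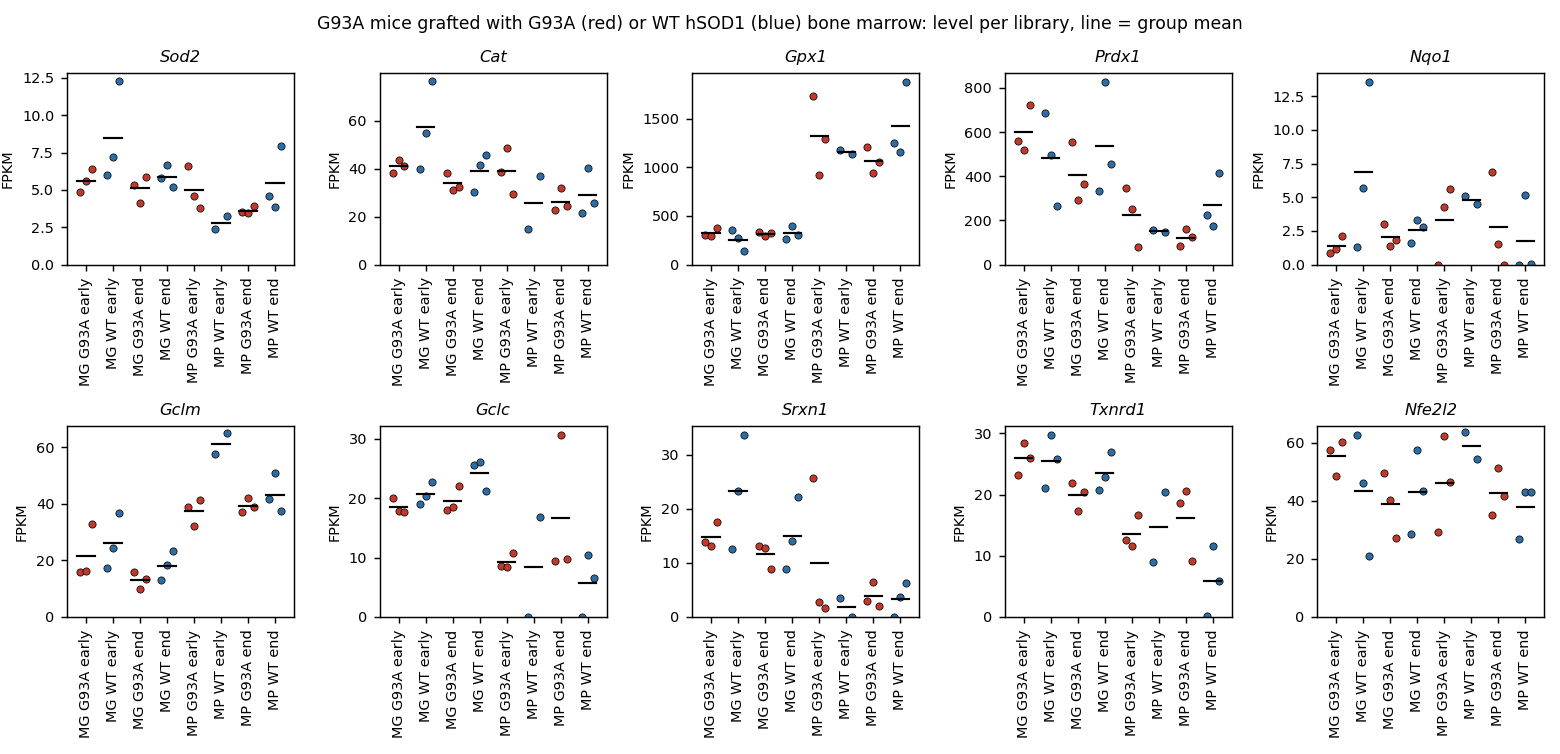
Level (FPKM, linear axis from 0) of the 10 genes in the 23 libraries of grafted G93A mice, with a point for each library and a line at the group mean, for G93A (red) and WT (blue) marrow. Donor groups overlap for most genes, and the early MG library with WT marrow that is highest for Sod2, Cat, Nqo1 and Srxn1 is lowest for Gpx1, Prdx1 and Nfe2l2 among MG.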

How the data were processed

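The authors deposited FPKM values in 2 tables, non-grafted and grafted, per the file headers, with decimal commas and 2 decimals; depth cannot be recovered from them. Build mm10 and the tools SAMtools, Picard, FastQC, R 3.2.5 and DESeq2 appear in the submitters' processing notes, without their roles. No aligner or counter is named in the sources used here. Rows without a symbol (35679 of 58976) were not used. The test was limma 3.58.1 (R 4.3.3; group-means design, moderated variance with a trend on mean level) on log2(FPKM + 1), for genes with a mean of at least 1 FPKM over a fit, at a Benjamini-Hochberg adjusted p under 0.05. Separate fits held the 33 MG, 18 MP, all 51 non-grafted, 12 grafted MG and 11 grafted MP libraries. The step was tested on simulated data. Cell marker scores are means of log2(FPKM + 1). Alternatives were a pseudocount of 0.1, no filter, median-ratio scaling, library quality weights, a replicate block, marker terms, only the groups compared, and each library left out. Leaving out the 4 MG libraries with S100a8 above 10000 FPKM was chosen after seeing the data. The 10 genes, the lists and the tests were chosen with earlier results of these data known. All 10 genes are named, and up to 4 called genes of each other list with the largest difference in a comparison could be. Promoters are from RefSeq (GRCm38.p6).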

Additional observations from a re-analysis of the deposited data

Results flagged for a closer look

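Of 110 groups of 4 or 5 libraries checked over the 10 genes, 6 held a library far from the rest of its group, close to the 1 in 20 that chance gives. Catalase was lowest in pre-symptomatic G93A MG replicate 4 (53.3 FPKM, against 64.1 to 66.3 FPKM in the others). The same library had the highest Gclc of its group (38.9 FPKM, against 24.7 to 25.6 FPKM). Nqo1 was highest in WT MG replicate 4 at the age of onset (14.9 FPKM, against 11.1 to 11.4 FPKM). Nfe2l2 was lowest in WT MG replicate 3 at the age of end stage (30.0 FPKM, against 59.0 to 66.5 FPKM), the library of that group with the most oligodendrocyte transcripts. In end-stage G93A MP, replicate 4 was highest for Prdx1 (355 FPKM, against 201 to 220 FPKM) and for Gclc (45.8 FPKM, against 2.90 to 4.70 FPKM).

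By the interaction test, the end-stage difference of Nfe2l2 was smaller in MP than in MG (-1.91 on the log2 scale, MP minus MG), and so was that of Gpx1 (-1.86). Its relation to the fall of neural transcripts in MG was not tested.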

How the results depend on the processing

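Of 240 gene and comparison pairs 36 passed. Among these 36, the call was lost in 2 with a pseudocount of 0.1, 4 with median-ratio scaling, 7 with no filter on low values, 7 with the replicate block, 11 with only the groups compared and 0 with library quality weights. Of the 25 of them in MG fits, marker terms ended 11 calls with the sign kept. Another 4 calls were also lost with these terms as their sign turned, and none of the 4 passed in the new direction. Leaving out the libraries high in S100a8 ended 8. Among all pairs, called or not, the sign changed in 37 of 130 with oligodendrocyte and neutrophil terms, 12 of 80 with red cell and neutrophil terms, 20 of 240 with quality weights, 14 with scaling, 6 with the replicate block, 1 with a pseudocount of 0.1 and 4 of 90 without the libraries high in S100a8. In 7 of these the difference passed before or after. With terms for oligodendrocyte and neutrophil scores, Nqo1 (0.218) and Srxn1 (0.009) turned at onset against C57BL/6J, Sod2 (0.086) at onset, Nqo1 (0.583) in early symptoms, and Cat (0.073) and Srxn1 (0.935) at end stage, each against pre-symptomatic MG. With quality weights Txnrd1 turned between donors in early grafted MG (0.259), where 1 library carried nearly all the weight of the WT-marrow group.

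Counts of the 10 genes moved as follows, and the cause was not tested. The shares of all genes called under these settings are not set beside them, so no change in count is read as particular to the 10 genes. For G93A against WT MG at end stage, 1 became 5 with quality weights, 2 with the replicate block, 2 with the marker terms, 2 without the libraries high in S100a8 and 0 with only the groups compared. Against C57BL/6J at end stage, 5 became 8 with quality weights and 8 without the libraries high in S100a8. At onset against WT, 0 became 6 with quality weights and 1 with a pseudocount of 0.1. At onset against C57BL/6J, 6 became 2 with the replicate block, 2 without the libraries high in S100a8, and 0 with the marker terms or only the groups compared. Onset against pre-symptomatic MG went from 3 to 9 with quality weights and to 0 with no filter, the replicate block, the marker terms, only the groups compared or without the libraries high in S100a8. WT against C57BL/6J went from 0 to 2 and 8 with quality weights, at the ages of onset and end stage. The interaction went from 2 to 1 with a pseudocount of 0.1, no filter or scaling. With quality weights grafted MG went from 0 to 6 between donors in early symptoms and from 0 to 1 between stages with WT marrow. In that fit early WT-marrow replicate 2 had a weight of 354, against 0.199 and 0.0969 for replicates 1 and 3. These counts therefore rest mainly on 1 library, and no donor difference is read from them.

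With 1 library left out, counts ran from 1 to 2 (end stage against WT), 3 to 7 (end stage against C57BL/6J), 0 to 5 (onset against WT), 2 to 7 (onset against C57BL/6J), 0 to 6, 3 to 4 and 5 to 6 (onset, early and end against pre-symptomatic MG), 4 to 5 and 2 to 5 (MP against MG, pre-symptomatic and end stage), 1 to 4 (interaction), 0 to 1 (early grafted MG, donors) and 0 to 0 elsewhere. Calls over all genes with 1 library left out moved as well. They ran from 357 to 1117 (end stage against WT), 3893 to 5900 (end stage against C57BL/6J) and 2 to 4978 (onset against WT). At onset they ran from 2245 to 8039 against C57BL/6J and from 0 to 6968 against pre-symptomatic MG. Scaling moved the median of all genes by over 0.1 in 7 comparisons, the most in MP against MG before symptoms (-0.402) and the interaction (0.372). Replicate numbers did not pair samples: same-numbered deviations correlated at -0.673 to 0.611. All genes called at onset against WT went from 506 to 32 with scaling, and at onset against pre-symptomatic MG from 2982 to 9 with no filter. The quality weights stopped before convergence in 2 fits. Depth is unknown, so low values carry no counting error.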
